A study of Mus musculus with 12 samples.

Results

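The tumor necrosis factor (TNF) superfamily comprises ligands, most of them made as membrane proteins, and the receptors that bind them. Genes were taken as members where the symbol starts with Tnfrsf or Tnfsf or is Tnf, Lta, Ltb, Ltbr, Cd40, Fas or Fasl, and where at least 1 probe names that gene alone. This gave 34 members of 18194 genes, namely 22 receptors, 11 ligands and Tnfsf13os, an antisense RNA that the symbol alone brings in. They were measured at the Th9 segment of the spinal cord of 12 female C57BL/6 mice (the substrain C57BL/6J in the study's methods), with 1 array per mouse and 3 mice in each of 4 groups: aged injured (15 to 18 months), young injured (2 to 3 months), aged intact and young intact. Injured mice had a laminectomy and a contusion with an impactor and were perfused 9 days later, and intact mice were naive, so the contusion and the surgery around it cannot be told apart. None of the 4 groups carries a transgene or received a drug or a cell graft, as far as the labels say. The question asked by the comparisons is how spinal cord injury (SCI) and age move the genes of this family.

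The receptors fall into groups by how they signal. Tnfrsf1a, Fas and Tnfrsf21 carry a death domain in the cell, which in Tnfrsf1a and Fas can reach caspase-8 through adaptors such as Tradd and Fadd, whereas Tnfrsf1b, Ltbr, Tnfrsf11a, Tnfrsf13b, Tnfrsf12a and Tnfrsf4 bind TRAF adaptors that lead to NF-kB. In injured spinal cord TNF is known as an early product of microglia and infiltrating macrophages, and the protease Adam17 releases both TNF and its receptors from the cell surface. Tnfrsf11b, osteoprotegerin, is a secreted decoy for the ligand of Tnfrsf11a.

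Each value is a MAS 5.0 signal on a linear scale, scaled to a trimmed mean of 100 on every array, and a signal of 50 is the cutoff on signal that the study used. Each gene is given by its probe of highest mean signal over the 12 arrays, so that signals are compared between arrays and never between genes. A share of 35.0% to 36.7% of the probes exceeded 50 on each array. The labelled tissue carried its markers, since all 6 neuronal, all 6 astrocyte and all 5 oligodendrocyte markers on the array exceeded 50. The aged injured arrays differed among themselves: the summed signal of the neuronal markers was 1192 in replicate 1, against 8387 and 5443 in the other aged injured mice, 5871 to 8965 in young injured, 16454 to 17280 in aged intact and 16271 to 16852 in young intact mice. That array held the highest value of 4 of the 11 members that could be tested, so results are also given without it where they turn on it. In such tissue samples fewer cells of a type and less RNA per cell cannot be told apart.

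The sequences just before the start of 4 receptor genes are shown as examples. Tnfrsf1b, Tnfrsf13b and Fas were higher after SCI at both ages, and Tnfrsf19 was lower in aged cord. The first 3 had intact means under 50, so they had to be higher after SCI to be tested. Fas was also taken because its window held 3 kinds of motif. The sequences are 250 bases long, read 5′ to 3′ in the direction of the gene, and come from RefSeq (GRCm38.p6). Of 34 members, 27 have such a window, and so do 10 of the 11 tested ones. Capitals mark matches, on either strand, to TGANTCA (the AP-1 motif), TTCNNNGAA (the motif of STAT factors), GGAAGT (a core bound by ETS factors), GGGCGG (the GC box) and the kappaB consensus of NF-kB. Where matches overlap, as with the last GGGCGG pair of Tnfrsf19, they form 1 run of capitals.
Tnfrsf1b, chr4:145246871-145247120, minus strand: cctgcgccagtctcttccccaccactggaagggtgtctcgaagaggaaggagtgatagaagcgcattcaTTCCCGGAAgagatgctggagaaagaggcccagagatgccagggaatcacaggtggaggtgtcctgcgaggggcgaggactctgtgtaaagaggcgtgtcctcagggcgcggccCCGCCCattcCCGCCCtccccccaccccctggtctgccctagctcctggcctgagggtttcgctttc
Tnfrsf13b, chr11:61126505-61126754, plus strand: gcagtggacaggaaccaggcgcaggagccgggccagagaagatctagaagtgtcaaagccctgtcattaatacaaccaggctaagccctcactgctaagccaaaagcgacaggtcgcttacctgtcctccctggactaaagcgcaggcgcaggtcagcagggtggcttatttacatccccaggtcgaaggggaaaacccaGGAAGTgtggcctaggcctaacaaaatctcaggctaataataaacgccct
Tnfrsf19, first start, chr14:61046856-61047105, minus strand: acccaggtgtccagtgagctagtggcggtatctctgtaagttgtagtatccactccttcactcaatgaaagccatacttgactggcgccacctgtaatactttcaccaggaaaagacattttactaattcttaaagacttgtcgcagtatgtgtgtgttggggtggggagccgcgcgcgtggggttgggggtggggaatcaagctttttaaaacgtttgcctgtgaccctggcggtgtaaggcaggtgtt
Tnfrsf19, other start, chr14:61037988-61038237, minus strand: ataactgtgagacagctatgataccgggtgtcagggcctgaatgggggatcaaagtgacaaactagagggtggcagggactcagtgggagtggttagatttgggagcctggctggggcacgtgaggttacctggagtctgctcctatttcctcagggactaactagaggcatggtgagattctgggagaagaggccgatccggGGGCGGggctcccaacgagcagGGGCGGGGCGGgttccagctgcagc
Fas, chr19:34290409-34290658, plus strand: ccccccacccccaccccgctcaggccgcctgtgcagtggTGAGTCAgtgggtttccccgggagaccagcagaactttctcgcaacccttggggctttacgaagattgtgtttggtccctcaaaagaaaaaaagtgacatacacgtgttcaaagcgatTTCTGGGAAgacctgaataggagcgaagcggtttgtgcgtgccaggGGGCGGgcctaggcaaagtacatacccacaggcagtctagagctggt

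None of the 11 windows of the tested members held a match to the kappaB consensus, which occurs in 7.25% of 32851 windows of the same kind, and 4 of the 31 windows of all members did (Ltb, Tnfrsf25, Tnfrsf8 and Tnfrsf9). TTCNNNGAA, found in 7.02% of all windows, lay in those of Fas, Tnfrsf1a and Tnfrsf1b among the tested members. In Tnfrsf1b it starts 181 bases before the start of the gene. TGANTCA, found in 6.75%, lay in the window of Fas only among the tested members. GGAAGT, found in 19.7%, lay in those of Tnfrsf13b and Tnfrsf4, and GGGCGG, found in 32.7%, in 7 of the 11. The first Tnfrsf19 window held none of these motifs and the other held GGGCGG. These are matches of letters in a short stretch and say nothing of binding.

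For 11 members, all receptors, the mean of 1 or more groups exceeded 50. Tnfrsf1a, Tnfrsf21, Tnfrsf12a, Tnfrsf19 and Tnfrsf11b exceeded it on all 12 arrays. Fas, Ltbr, Tnfrsf13b and Tnfrsf1b reached it in both injured groups and in neither intact group, and Tnfrsf11a and Tnfrsf4 in the aged injured group alone. These 6 were admitted through the group in which they are high and therefore had to differ. None of the 11 ligands exceeded 50 on any array. Tnfsf12 and Tnfsf13, which encode the ligands TWEAK and APRIL, are not among them, since their probes name several genes, and they are not analysed here. Over all genes of the series, 10511 of 18194 passed.

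**Figure D1:**
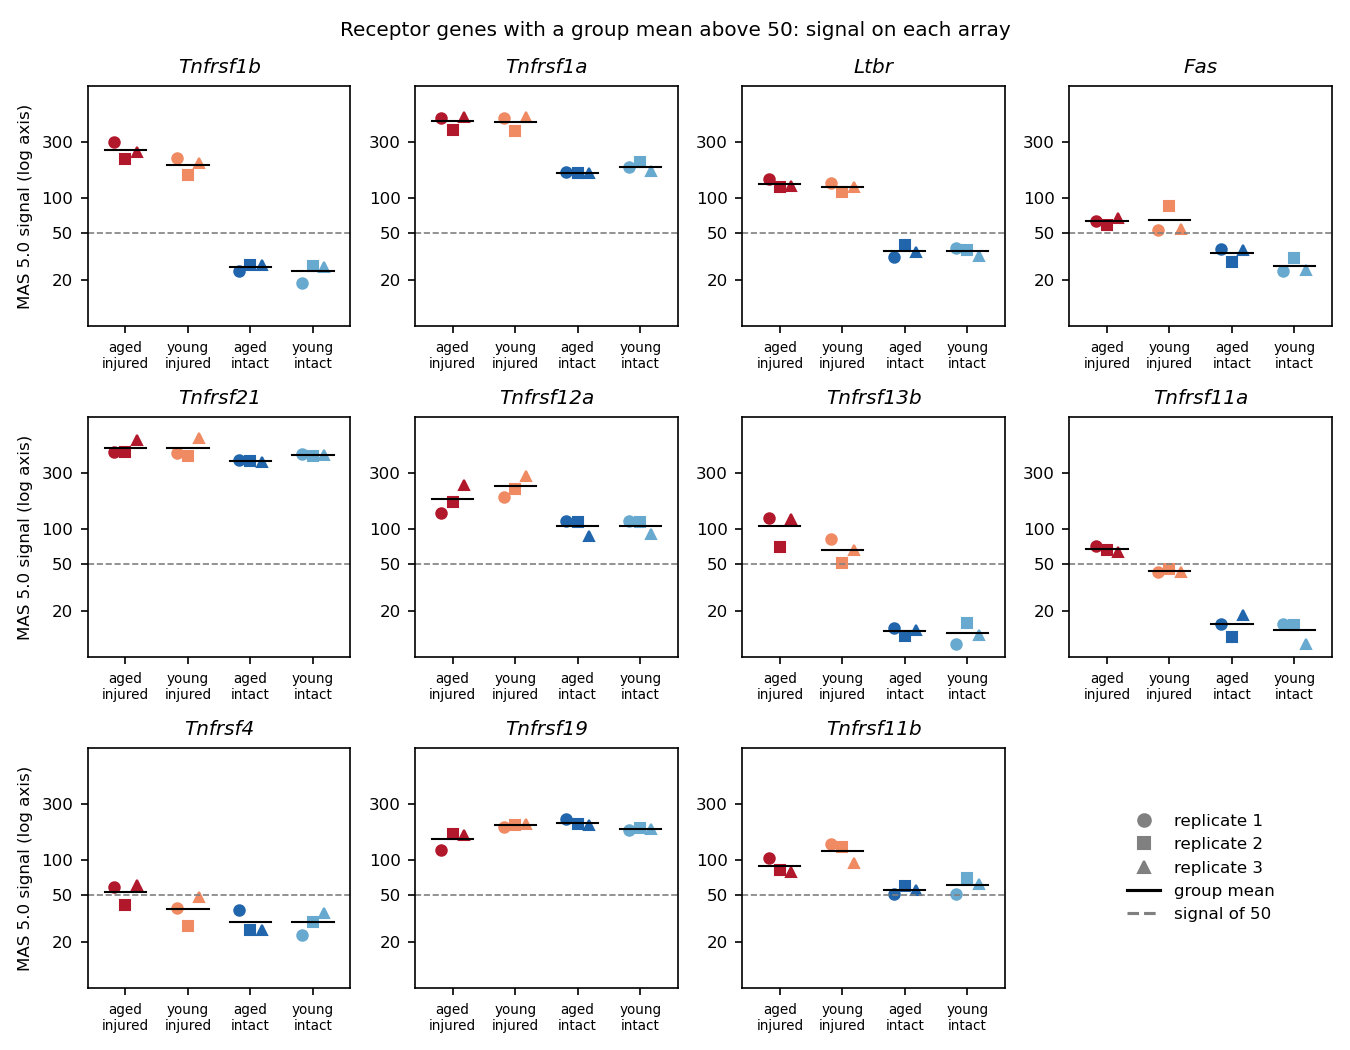
MAS 5.0 signal (log axis) of the 11 receptor genes with a group mean above 50, by group, with a symbol per mouse, a line at each group mean and a dashed line at 50. Tnfrsf1b, Ltbr, Tnfrsf13b and Fas lie above 50 on all 6 injured arrays and below it on all 6 intact arrays, and Tnfrsf19 is lowest in aged injured cord.

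Most of the expressed receptors were higher after SCI at both ages. In aged cord all 11 were called, against 75.5% of all genes tested, 10 of them higher (35.6% of all genes) and 1 lower (39.9%). In young cord 8 were called, against 68.0%, all of them higher (33.9%) and none lower (34.1%). The injured and intact arrays did not overlap for 11 members in aged cord, 10 of them higher and 1 lower, against 78.3% of all genes tested (36.7% higher and 41.6% lower). In young cord they did not overlap for 9, all higher, against 76.1% of all genes (37.5% higher and 38.7% lower). The calls are those of limma at an adjusted p under 0.05 over the 10511 genes. In young cord 8 members also had an unadjusted p under 0.05, the same number as were called, against 7476 of all genes tested. Since 6 of the 11 had to be high after SCI to be tested at all, these counts describe the members and are no measure of the family against other genes. Among the 5 that exceeded 50 in every group, 4 were higher and 1 lower in aged cord, and 3 were higher in young cord. Without aged injured replicate 1, again all 11 were called in aged cord, against 3548 of the 10511 genes called higher and 4043 lower.

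Tnfrsf1b, the receptor TNFR2 that responds most to membrane-bound TNF and lacks a death domain, had signals of 299, 214 and 248 in aged injured cord, against 23.9, 26.9 and 26.9 in aged intact cord. The young injured mice had 220.4, 155 and 199, and the young intact mice 18.7, 26.3 and 25.6. All injured arrays lay far above all intact ones. With the intact means under 50 and set to it, the signal was at least 5.02-fold higher in aged cord (adjusted p = 8.99e-08 from limma) and at least 3.79-fold higher in young cord (adjusted p = 1.94e-07). A lower probe of the gene, under 50 in every group, had means of 26.5, 24.1, 15.8 and 10.0 in aged injured, young injured, aged intact and young intact cord, so it ran the same way.

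Tnfrsf1a, the receptor TNFR1 with a death domain that most cells carry, was expressed in all groups. Its signal was 480.2, 381 and 492 in aged injured cord and 167, 163 and 163 in aged intact cord. In young mice it was 482, 373 and 488 after SCI and 183, 202.5 and 169 without it. The injured and intact arrays did not overlap at either age, whereas the injured arrays of both ages covered almost the same range. The rise was 2.73-fold in aged cord (log2 1.45, standard error 0.13, adjusted p = 2.71e-06 from limma) and 2.41-fold in young cord (log2 1.27, adjusted p = 9.69e-06).

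Ltbr, the lymphotoxin beta receptor, lies on chromosome 6 with 1 protein-coding gene between it and Tnfrsf1a. Its signals were 146, 124 and 126 in aged injured cord and 31.3, 39.5 and 34.3 in aged intact cord. Young injured mice had 134, 112.5 and 123, and young intact mice 37.2, 35.7 and 31.9. The signal was thus at least 2.64-fold higher in aged cord (adjusted p = 2.78e-07 from limma) and at least 2.45-fold higher in young cord (adjusted p = 5.46e-07), with no overlap at either age.

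Fas, the death receptor for Fas ligand, had 63.7, 58.4 and 67.3 in aged injured cord and 36.8, 28.1 and 35.6 in aged intact cord. Young injured mice had 52.7, 85.8 and 53.7, and young intact mice 23.5, 30.5 and 24.3. Every injured array exceeded 50 and every intact array lay below it. The difference was at least 1.26-fold in aged cord (adjusted p = 0.00168 from limma) and at least 1.25-fold in young cord (adjusted p = 2.87e-04). Its ligand Fasl ranged from 1.8 to 8.1 over the 12 arrays. Both Fas calls were lost when signals under 50 were set to 50 before the fit (adjusted p = 0.0624 in aged and 0.0796 in young cord).

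Tnfrsf21, the death domain receptor DR6, had 448, 456 and 569 in aged injured cord and 387, 376 and 375 in aged intact cord. In young mice the values were 447, 422 and 596 after SCI and 433, 418 and 425 without it, which overlapped. It rose 1.29-fold in aged cord (log2 0.36, standard error 0.13, adjusted p = 0.0212 from limma). The young difference was 0.18 on the log2 scale and was not called (adjusted p = 0.217), whereas with array weights it was (log2 0.27, adjusted p = 0.0316). The aged call was lost without aged injured replicate 3 (adjusted p = 0.0928) or without aged intact replicate 2 or 3 (0.0524 and 0.0534). Its other probe had means of 176, 156, 111 and 138 in aged injured, young injured, aged intact and young intact cord.

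Tnfrsf12a, the TWEAK receptor Fn14, had 135, 170 and 238 in aged injured cord and 116, 115 and 87.0 in aged intact cord. Young injured mice had 187, 220.1 and 282, and young intact mice 116, 114 and 89.5. The injured and intact arrays did not overlap at either age, and the means of its other probe were 176, 215, 93.5 and 101 in aged injured, young injured, aged intact and young intact cord. The rise was 1.68-fold in aged cord (log2 0.74, standard error 0.22, adjusted p = 0.00894 from limma) and 2.14-fold in young cord (log2 1.10, adjusted p = 0.00110).

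Tnfrsf13b, the receptor TACI for BAFF and APRIL known from B cells, had 123, 70.0 and 122 in aged injured cord and 14.1, 12.2 and 13.8 in aged intact cord. In young mice the signal was 81.8, 51.0 and 65.7 after SCI and 10.3, 15.8 and 12.4 without it. Intact cord thus lay well under 50 at both ages and all injured arrays above it. The difference was at least 2.03-fold in aged cord (adjusted p = 3.50e-06 from limma) and at least 1.30-fold in young cord (adjusted p = 2.25e-05). With signals under 50 set to 50 before the fit the young call was lost (log2 0.38, adjusted p = 0.126). The summed signal of 4 B cell markers (Ms4a1, Cd79a, Cd79b and Blk) was 25.2 to 48.6 in aged injured, 44.8 to 49.0 in young injured, 15.5 to 35.2 in aged intact and 22.2 to 38.1 in young intact cord, and none of them exceeded 50 in any group. Tnfsf13b, which encodes the ligand BAFF, also stayed under 50, and its injured and intact arrays overlapped at both ages.

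Tnfrsf11a, the receptor RANK, known from osteoclast precursors, had 71.9, 66.5 and 62.8 in aged injured cord, against 15.4, 12 and 18.4 in aged intact cord. The young injured mice had 42.6, 45.2 and 42.7, and the young intact mice 15.5, 15.0 and 10.3. The rise was at least 1.34-fold in aged cord (adjusted p = 7.41e-06 from limma). In young cord it was called as well (adjusted p = 5.75e-05), but both groups lay under 50, so that no fold is given and the call is lost once signals under 50 are set to 50. Tnfrsf11b, the decoy of the same ligand, had 103, 82.1 and 78.2 in aged injured, 136, 128 and 93.3 in young injured, 50.6, 60.2 and 55.1 in aged intact and 51.0, 70.0 and 61.8 in young intact cord. After SCI it was higher 1.58-fold in aged cord (log2 0.66, standard error 0.17, adjusted p = 0.00457 from limma) and 1.94-fold in young cord (log2 0.96, adjusted p = 5.75e-04). These calls rest on 1 of its 2 probes, since the other stayed between means of 9.27 and 12.7, and with the median over both they were lost (adjusted p = 0.456 in aged and 0.244 in young cord). The ligand of both, Tnfsf11, ranged from 0.2 to 16.2.

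Tnfrsf4, the costimulatory receptor OX40 known from T cells, had 58.8, 40.9 and 61.1 in aged injured cord and 37.6, 25.2 and 25.0 in aged intact cord. Young injured mice had 38.6, 27.0 and 47.9, and young intact mice 22.9, 29.3 and 35.4, which overlapped. The rise in aged cord was called (log2 0.88, standard error 0.27, adjusted p = 0.0120 from limma) but bounded only at 1.06-fold or more, and the young difference of 0.36 was not called (adjusted p = 0.260). The 5 T cell markers summed to 36.8 to 91.6 in aged injured, 45.5 to 55.7 in young injured, 28.6 to 41.8 in aged intact and 18.4 to 41.1 in young intact cord, and none exceeded 50 in any group.

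Tnfrsf19, the receptor TROY, which can stand in for the p75 receptor in the Nogo receptor complex of neurons, was the only tested member called lower. It had 122, 166 and 162 in aged injured cord and 222, 204 and 197 in aged intact cord, which did not overlap. The signal was 1.40-fold lower (log2 -0.48, standard error 0.11, adjusted p = 0.00189 from limma). In young mice it was 192, 199.7 and 203 after SCI and 179, 185 and 185 without it, a log2 difference of 0.11 that was not called (adjusted p = 0.364), although these arrays did not overlap either. Without aged injured replicate 1, whose neuronal markers were lowest, the aged difference was -0.34 (adjusted p = 0.00178). The summed astrocyte markers were 7456 to 11974 in aged injured, 14239 to 16015 in young injured, 11962 to 12093 in aged intact and 12585 to 13121 in young intact cord. They did not move alike. In aged cord the means of Gfap, Aqp4 and Aldh1l1 were higher after SCI and those of Slc1a2, Slc1a3 and Gja1 lower. In young cord those of Slc1a2 and Gja1 were lower and the others higher. The part of neurons or astrocytes in the Tnfrsf19 result was not tested. The other probes of the gene stayed under 50, with means of 17.4 to 23.9 for one and 7.13 to 10.5 for the other.

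**Figure D2:**
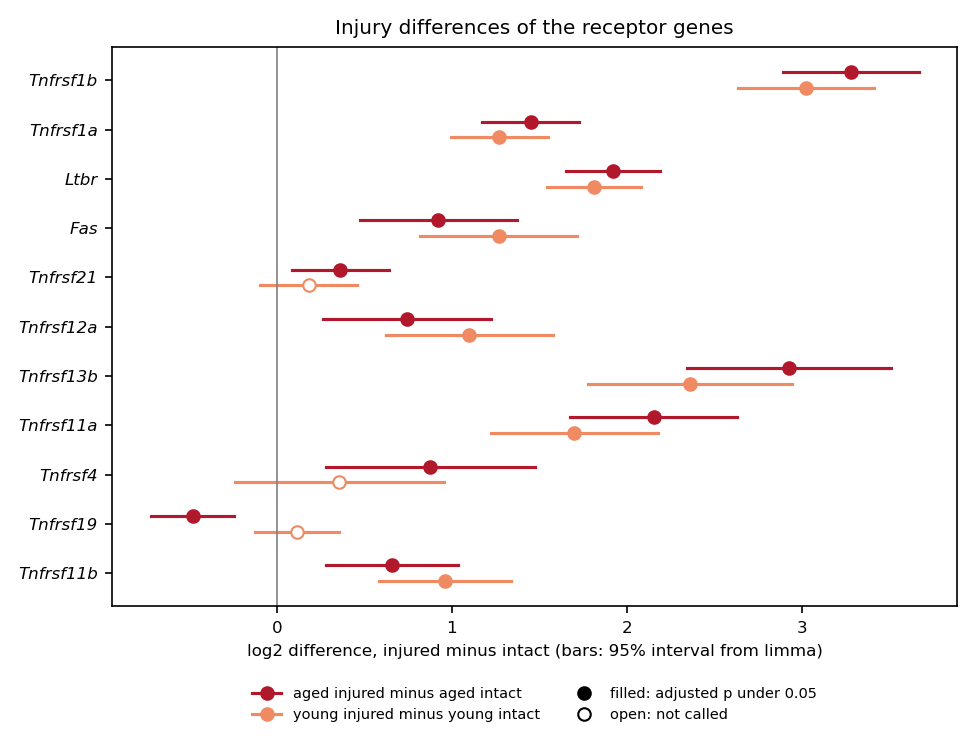
Log2 difference, injured minus intact, of the 11 receptor genes, with the aged comparison above the young one in each pair, bars for the 95% interval of limma and filled points for an adjusted p under 0.05. Tnfrsf1b lies at 3.28 in aged and 3.03 in young cord, and Tnfrsf19 alone lies below 0 in aged cord, at -0.48. Tnfrsf1b, Ltbr, Fas, Tnfrsf13b, Tnfrsf11a and Tnfrsf4 had intact means under 50, so that their points are no measure of the fold.

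Markers of cells known to express several of these receptors also moved with injury. All 8 microglia and macrophage markers exceeded 50, and their summed signal was 14590 to 16662 in aged injured, 11725 to 14808 in young injured, 2475 to 2692 in aged intact and 1556 to 1689 in young intact cord. Of these 8, 7 were higher after SCI at each age, against 35.6% of all genes in aged and 33.9% in young cord. The 5 fibroblast markers summed to 10254 to 13891 in aged injured, 10790 to 14550 in young injured, 2272 to 3540 in aged intact and 3459 to 3728 in young intact cord. The part of these cells in the receptor results was not tested.

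The 23 other members stayed under a mean of 50 in every group and were left out of the test, so no fold is given for them. In a fit of all 18194 genes without that cutoff, 6 of the 23 were called higher after SCI in aged cord (Cd40, Ltb, Tnf, Tnfrsf25, Tnfsf11 and Tnfsf8), against 24.1% of all genes, and 2 lower (Tnfrsf13c and Tnfrsf17), against 26.9%. In young cord 6 were called higher (Cd40, Ltb, Tnf, Tnfrsf17, Tnfrsf18 and Tnfsf8), against 23.4%, and none lower, against 21.1%. Tnf, the founding ligand, had 17.2, 19.1 and 24.7 in aged injured cord and 2.1, 1 and 1 in aged intact cord, and 3.4, 14 and 13.7 in young injured against 1.7, 4.2 and 1.3 in young intact cord. The injured and intact arrays did not overlap in aged mice, and they did in young mice through 1 injured array at 3.4. In the fit without the cutoff its adjusted p from limma was 2.34e-04 in aged and 0.0198 in young cord. Ltb, which adjoins Tnf on chromosome 17 as Lta does, had 42.5, 22.0 and 18.7 in aged injured against 11.8, 12.5 and 9.0 in aged intact cord, and 20.8, 17.9 and 19 in young injured against 14.2, 9.4 and 7.2 in young intact cord. Lta itself lay between 0.8 and 6.9.

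Cd40, the receptor of antigen-presenting cells for CD40 ligand, had 47.0, 21.5 and 38.5 in aged injured against 14.1, 14.9 and 11.7 in aged intact cord. In young mice it had 22.9, 19.6 and 17.8 after SCI against 10.1, 13.7 and 7.4 without it. Its injured arrays lay above the intact ones at both ages, as did those of Ltb, Tnfsf8 and Tnfsf11. Tnfsf8, the CD30 ligand, had 33.1, 28.4 and 22.0 in aged injured, 18.6, 25.2 and 15.8 in young injured, 9.3, 10.4 and 9.9 in aged intact and 8.6, 9.3 and 10.4 in young intact cord.

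Of the 23, 9 lay higher without overlap after SCI in aged cord and 2 lower, against 15.7% and 15.5% of the 7683 genes with every group mean under 50. In young cord 7 lay higher and 1 lower, against 18.0% and 10.7% of those genes. The 2 that were lower in aged cord were Tnfrsf13c, the BAFF receptor (10.9, 24.6 and 21.5 in aged injured, 34.2, 32.8 and 30.1 in aged intact cord), and Tnfrsf17, the related receptor BCMA (1.1, 2.5 and 4.8 in aged injured, 6.8, 10.3 and 9.5 in aged intact cord). Tnfsf10, which encodes the death ligand TRAIL, ranged from 15.9 to 32.0, Tnfsf13b from 22.8 to 49.8 and Tnfsf13os from 4.1 to 30.4, and each overlapped between injured and intact cord at both ages. Tnfsf4, the ligand of Tnfrsf4, lay between 2 and 17.4. Of the remaining receptors, Tnfrsf18, known as GITR, reached 20.4 and the decoy receptor Tnfrsf22 22.2, while Tnfrsf25, the death receptor DR3, reached 18. The highest signals of Tnfrsf23, Tnfrsf8, Tnfrsf9, Tnfrsf10b and Tnfrsf14 were 13.7, 13.1, 11.2, 7.5 and 6.5.

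**Figure D3:**
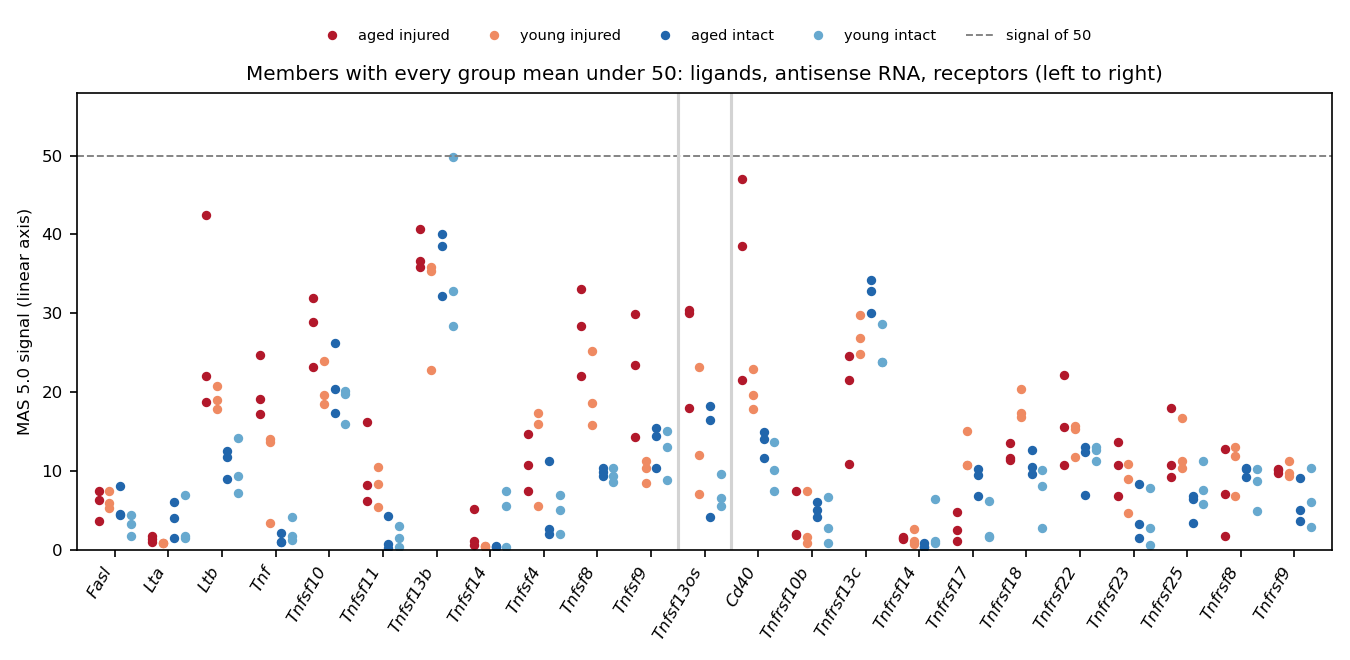
MAS 5.0 signal (linear axis) of the 23 members with every group mean under 50, with a point per mouse and a dashed line at 50, and the 11 ligands at the left. The highest point, 49.8, is Tnfsf13b in a young intact mouse. The highest points of Cd40 and Ltb, 47.0 and 42.5, are both aged injured replicate 1. For both genes the aged and young injured points overlap. Neither was called between the ages after SCI in the fit without the cutoff (adjusted p = 0.192 and 0.486 from limma).

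No receptor that could be tested was called between aged and young intact cord. By limma 0 of the 11 passed, against 0.809% of all genes (0.542% higher and 0.266% lower). An unadjusted p under 0.05 was reached by 0, against 1073 of the 10511 genes tested. The log2 differences lay between -0.17 for Tnfrsf1a (95% interval -0.44 to 0.11) and 0.36 for Fas (-0.09 to 0.81). The arrays of the 2 ages did not overlap for 3 members, Tnfrsf19, Tnfrsf1a and Tnfrsf21, against 25.5% of all genes tested. Tnfrsf19 was the higher in aged mice (14.3% of all genes) and the other 2 were lower (11.2%).

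After SCI, 1 of the 11, Tnfrsf19, was called between the ages, against 8.99% of all genes, and was lower in aged cord, against 4.58% of all genes called lower and 4.41% called higher. An unadjusted p under 0.05 was reached by 5, against 3168 of the 10511 genes tested. The arrays of the ages did not overlap for 2, Tnfrsf11a and Tnfrsf19, against 28.1% of all genes tested. Tnfrsf11a was the higher in aged cord (14.0% of all genes) and Tnfrsf19 the lower (14.1%). Since Tnfrsf11a passed 50 in the aged injured group alone, its mean had to be higher there. The share of 8.99% stands for 945 genes called by limma, and this background moves with the arrays used. It was 3064 genes once aged injured replicate 2 was left out, 291 once young injured replicate 2 was, and 0 when the fit held only the arrays compared. Tnfrsf19 was 1.34-fold lower in aged injured cord (log2 -0.42, standard error 0.11, adjusted p = 0.0392 from limma), with 122, 166 and 162 in aged injured and 192, 199.7 and 203 in young injured mice. The call was lost under 14 of 21 alternatives, among them leaving out aged injured replicate 1 (log2 -0.27, adjusted p = 0.0607) or any other array except aged injured replicate 2. This comparison shares the aged injured arrays with that of injured and intact aged cord. The difference between the ages in the injury response was -0.60 (standard error 0.15, adjusted p = 0.123), with an unadjusted p of 0.00259 from limma, and was called without aged injured replicate 2 (adjusted p = 0.0384) and with array weights (adjusted p = 0.0142). For this interaction 0 of the 11 members were called, against 0.438% of all genes (0.133% positive and 0.304% negative). Tnfrsf19 was the 1 member with an unadjusted p under 0.05, against 1708 of the 10511 genes tested.

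Tnfrsf11a passed 50 in the aged injured group alone, so its mean there had to exceed the young injured mean. That young mean, 43.5, lay under 50, which bounds the difference at 1.34-fold or more. Each aged injured mouse lay above each young injured mouse, at 62.8 to 71.9 and 42.6 to 45.2, but the gene was not called (log2 0.62, 95% interval 0.15 to 1.10, adjusted p = 0.0881 from limma). Without aged injured replicate 1 the difference was 0.57 (adjusted p = 0.222). Its other probe had means of 66.1 in aged injured, 33.5 in young injured, 5.10 in aged intact and 1.07 in young intact cord.

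Tnfrsf13b differed between the ages after SCI by 0.64 on the log2 scale (standard error 0.26, adjusted p = 0.132 from limma) and its arrays overlapped, and without aged injured replicate 2, its lowest aged injured array, it was called (log2 0.91, adjusted p = 0.0240). Tnfrsf1b differed by 0.41 (95% interval 0.02 to 0.79, adjusted p = 0.150) and Tnfrsf11b by -0.43 (-0.81 to -0.05, adjusted p = 0.123). For Tnfrsf1a the difference was 0.01 (-0.27 to 0.29), for Ltbr 0.11 (-0.16 to 0.37), for Fas 0.01 (-0.43 to 0.46) and for Tnfrsf21 0.02 (-0.26 to 0.29). With 3 mice per group, true differences anywhere inside these 4 intervals remain compatible with the data. Over all 10511 genes the median difference was -0.04.

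Among the 23 low members, Tnf, Lta, Tnfsf14 and Tnfsf9 lay higher without overlap in aged injured than in young injured cord, and Tnfrsf13c, Tnfrsf17 and Tnfrsf18 lower, against 5.02% and 8.81% of the 7683 genes with every group mean under 50. Tnf had 17.2, 19.1 and 24.7 in aged injured against 3.4, 14 and 13.7 in young injured mice. Tnfsf9, the ligand of the costimulatory receptor Tnfrsf9, had 29.9, 14.3 and 23.4 in aged injured against 10.4, 8.5 and 11.2 in young injured mice. Lta was at most 6.9 and Tnfsf14 at most 7.4 on every array. In the fit without the cutoff 0 of the 23 were called between the ages after SCI, against 3.64% of all genes. An unadjusted p under 0.05 was reached by 4 of the 23, against 3899 of 18194 genes. The adjusted p from limma was 0.291 for Tnf, 0.595 for Lta, 0.419 for Tnfsf14, 0.0830 for Tnfsf9 and 0.0584 for Tnfrsf17.

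**Figure D4:**
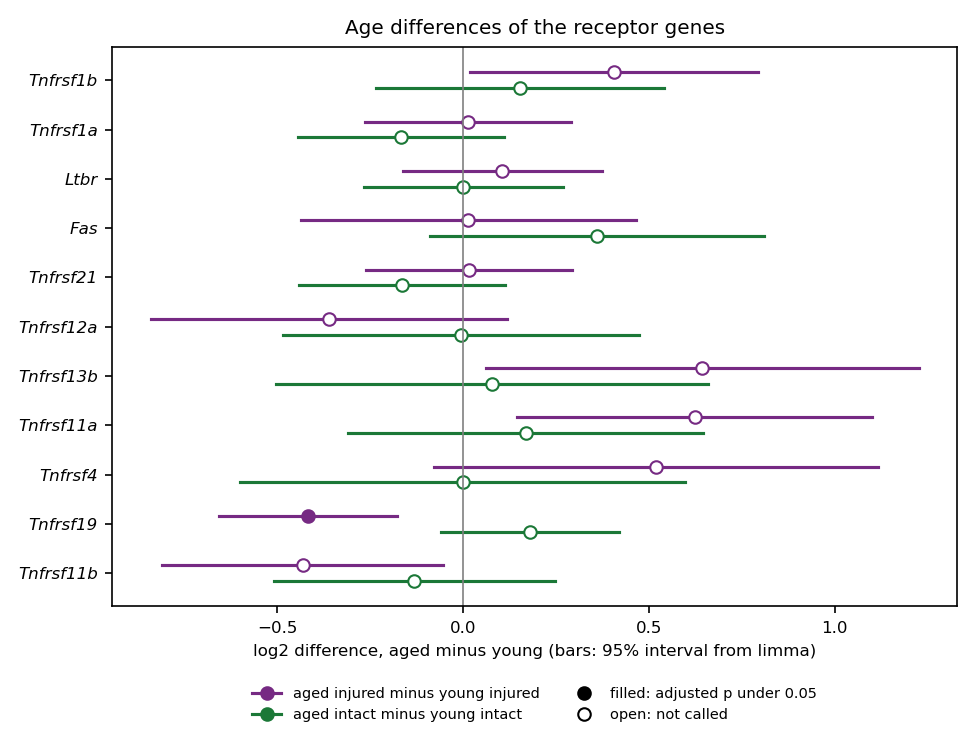
Log2 difference, aged minus young, of the 11 receptor genes, with the injured comparison above the intact one in each pair, bars for the 95% interval of limma and filled points for an adjusted p under 0.05. Tnfrsf19 in injured cord is the only filled point, at -0.42, while the intervals of Tnfrsf11a and Tnfrsf13b lie above 0 without an adjusted p under 0.05. Tnfrsf11a was admitted through the aged injured group alone, so its mean there had to be higher.

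The genes through which these receptors signal were taken from 6 lists with 65 genes, of which 36 passed the cutoff of 50. After SCI in aged cord 27 were higher, against 35.6% of all genes tested, and 4 lower, against 39.9%. The median log2 difference was 1.00, against -0.04 over all genes tested. In young cord 26 were higher, against 33.9%, and 4 lower, against 34.1% (median 0.94, against -0.00). The same shares of all genes stand beside the counts of each list below. Of the 36, 13 had both intact means under 50, so that they passed only through an injured group and had to be higher, and all 13 were called higher at both ages. Among the other 23, 14 were higher and 4 lower in aged cord (median 0.74), and 13 were higher and 4 lower in young cord (median 0.74). Of 8 tested adaptors and death signalling genes, 6 were higher at both ages and none lower. Among these 6, Traf6, Tradd, Fadd and Casp8 had both intact means under 50 and so had to be higher. The young Traf6 call was lost under 4 of 20 alternatives, and its sign turned with the median over its probes. The young Tradd call was lost with that median (adjusted p = 0.237 from limma). With signals under 50 set to 50 the aged Traf6 call was lost (adjusted p = 0.0529 from limma). Casp8, the caspase of the death receptors, had a log2 difference of 2.81 in aged cord (at least 6.04-fold, adjusted p = 8.82e-08 from limma) and of 2.62 in young cord (at least 4.83-fold, adjusted p = 1.76e-07). Fadd, the adaptor that binds it, was at least 1.71-fold higher in aged and at least 1.37-fold higher in young cord. Cflar, which restrains the same caspase, differed by 1.51 in aged and 1.43 in young cord.

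Of 5 NF-kB kinases and subunits, 4 were higher in aged cord, against 35.6% of all genes, and 3 in young cord, against 33.9%. They included Rela, the transactivating subunit (0.96 in aged and 1.01 in young cord). The aged call of Ikbkg, the regulatory subunit of the kinase (adjusted p = 0.0401), was lost under 10 of 21 alternatives. The young call of Ikbkb, another gene of this list, was lost with the median over its probes (adjusted p = 0.411 from limma). Of 8 inhibitors and brakes, 4 were higher and 2 lower at each age (all genes lower: 39.9% in aged, 34.1% in young cord). Among these 4, Nfkbie and Tnfaip3 had both intact means under 50 and so had to be higher. Tnfaip3, which encodes the deubiquitinase A20, was among the higher ones (2.47 in aged and 2.23 in young cord), and Cyld, another deubiquitinase of the pathway, among the lower ones (-0.35 in aged and -0.38 in young cord). The aged Cyld call was lost without aged injured replicate 3 or aged intact replicate 3 (adjusted p of up to 0.0592). The aged call of Nfkbib, an inhibitor that was lower, was lost under 9 of 20 alternatives, and its sign turned with the median over its probes. Its young call was lost with that median (adjusted p = 0.258 from limma). Of 10 tested target genes, 9 were higher and 1, the mitochondrial dismutase Sod2, was lower at each age, with medians of 1.71 in aged and 2.75 in young cord. Most of the 10 had to be higher, since Icam1, Ccl2, Ccl5, Cxcl1, Cxcl10, Tnfaip2 and Ptgs2 had both intact means under 50. These medians are thus no measure of the fold at either age. Ccl2, a monocyte chemokine, differed by 4.14 in aged cord (at least 2.68-fold) and 4.33 in young cord (at least 1.69-fold), and Tnfaip2, a TNF-induced gene, by 3.80 (at least 7.97-fold) and 4.27 (at least 6.5-fold). Icam1, an adhesion molecule for leukocytes, differed by 2.73 in aged cord and 3.45 in young cord. Where intact signals lay under 50, as for these 3, the fitted log2 value is no measure of the fold.

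Of 4 tested genes of ligand and receptor shedding, all were higher after SCI at both ages. Of all genes tested, 35.6% were higher in aged and 33.9% in young cord. Adam17, the TNF converting enzyme, rose 6.11-fold in aged cord (log2 2.61, adjusted p = 2.12e-07 from limma) and 3.63-fold in young cord (log2 1.86, adjusted p = 3.30e-06). Timp3, the inhibitor of that enzyme, was higher by 0.24 in aged cord (adjusted p = 0.0153) and by 0.82 in young cord (adjusted p = 6.95e-06). Between the ages after SCI, Timp3 was 1.63-fold lower in aged cord (log2 -0.71, adjusted p = 0.00195) and Adam10, a related protease, 1.29-fold higher (log2 0.37, adjusted p = 0.0267), the only 2 of the 36 called. Over all genes tested, 8.99% were called in this comparison. The Adam10 call was lost without any 1 of the young injured arrays, and the Timp3 call when the fit held no intact arrays (adjusted p = 0.0583). The aged injury call of Timp3 was lost without aged intact replicate 3 (adjusted p = 0.0682).

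In intact cord 2 of the 36, the chemokine genes Ccl5 and Cxcl10, were called higher in aged mice, against 0.542% of all genes tested. Both groups lay under 50 for each gene, so that no fold is given. The Ccl5 call was lost without aged intact replicate 2 or 3 or young intact replicate 1 or 2. Cxcl10 was also the only one of the 36 whose injury difference was called as differing between the ages, against 0.438% of all genes tested. With signals under 50 set to 50 that call was lost (adjusted p = 0.0618), and so was its aged injury call (adjusted p = 0.0962). Of the family genes outside the rule, Relt alone passed the cutoff and was called lower after SCI at both ages. Its injured means, 29.2 in aged and 36.6 in young cord, lay under 50, which bounds the difference at 1.01-fold or more in aged and 1.15-fold or more in young cord, and with signals under 50 set to 50 the aged call was lost (adjusted p = 0.531). Cd40lg, Cd27, Cd70, Eda, Edar, Eda2r and Ngfr stayed under 50 in every group.

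**Figure D5:**
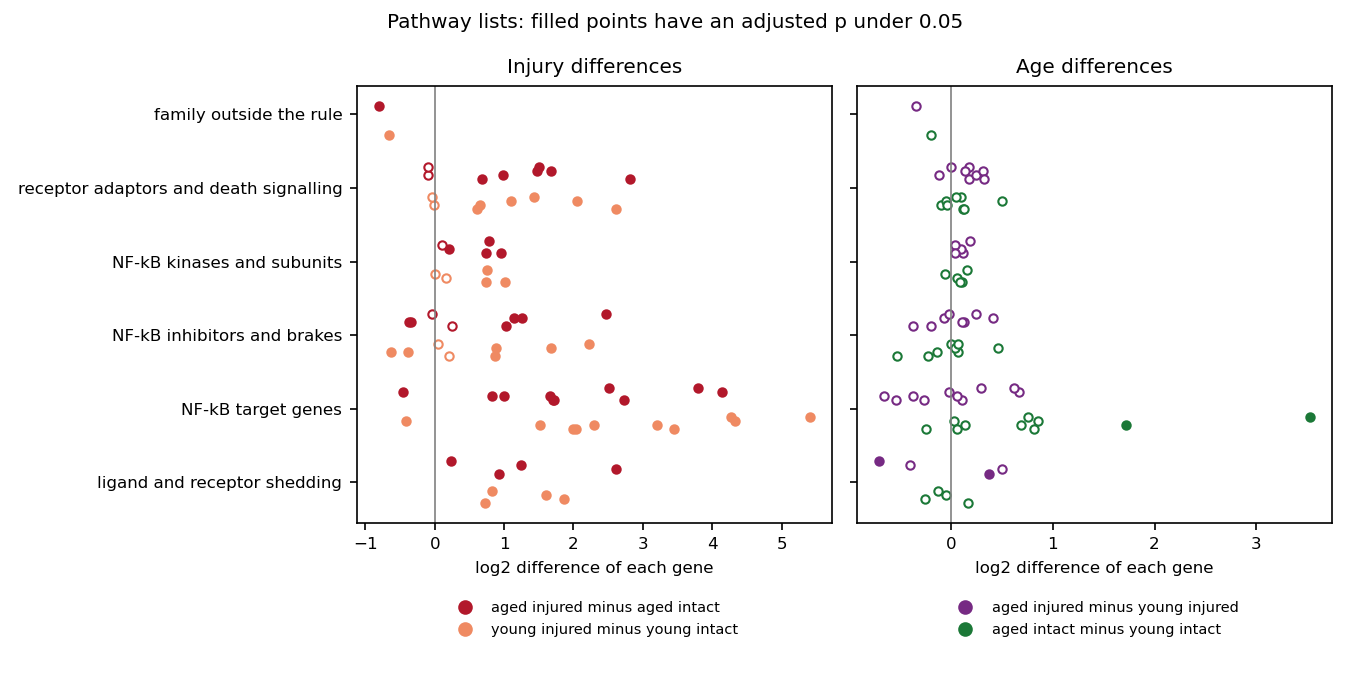
Log2 differences of the 36 tested genes of 6 lists of TNF family signalling, with a point per gene, injury at the left (aged above young) and age at the right (injured above intact), and filled points for an adjusted p under 0.05. Most points at the left lie above 0, while at the right only Timp3, Adam10, Ccl5 and Cxcl10 are filled, the last 2 with signals under 50 in both intact groups.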

How the data were processed

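RNA of 12 mice was labelled with biotin and hybridized to 1 GeneChip Mouse Genome 430 2.0 array each. The deposited values are signal intensities that the authors made with MAS 5.0, linear and scaled to a trimmed mean of 100. They came as a table with 1 column per array and 45101 probes, of which 34958 name 1 gene, 932 several and 9211 none, per GEO's platform annotation. The 3 probes that name a member beside other genes were left out, and their values are not analysed here.

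Log2 signals were fitted with limma 3.58.1 in R 4.3.3 (lmFit, contrasts.fit and eBayes with a trend), with 1 mean per group over all 12 arrays, on the 10511 genes with a group mean above 50. P-values were adjusted with Benjamini-Hochberg over all of them and called under 0.05. The fit was tested on simulated data. A fold is the antilog of a difference of log2 means, and where 1 group mean was under 50, its arrays were set to at least 50 and the fold is given as "at least". Members called in a comparison are given on every array and the others by name and range, with some low ones also given in full after their values were seen. Of the lists, genes called between the ages and those with large injury differences are named, and others were chosen for their role after their values were seen. The members and lists were chosen with earlier results of these data known. Gene windows, neighbours and chromosomes come from RefSeq tables (GRCm38.p6). No scan date or batch was used here. Arrays of a group are separate mice, and 3 arrays per group limit the precision. Same-numbered arrays were not paired (2 of 18 pairs correlated above 0.1). Those 2 joined aged and young injured arrays, at 0.60 for replicate 1 and 0.67 for replicate 2, against 0.01 for replicate 3. They thus fall in the comparison of the ages after SCI, which was also fitted with the replicate number as a block. Alternatives were another filter, normalization, probe summary, variance model, call rule and set of arrays, a replicate block, and each array left out.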

Additional observations from a re-analysis of the deposited data

Results flagged for a closer look

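The signals of Tnfrsf19 lay on opposite sides of the intact ones after SCI at the 2 ages. Every aged injured array lay below every aged intact array and every young injured array above every young intact array. The difference between the injury responses, aged minus young, was -0.60 on the log2 scale (adjusted p = 0.123 from limma), which was not called. The young injury difference alone, 0.11 (95% interval -0.12 to 0.35, adjusted p = 0.364), was not called either. A lower probe of the gene, under 50 in every group, differed by -0.45 in aged and -0.21 in young cord. Its remaining probe, with still lower signals, differed the other way, by 0.46 in aged and 0.38 in young cord.

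Among genes named beside the members, 4 had an injury difference that was called as differing between the ages, against 0.438% of all genes tested. The chemokine gene Cxcl10 had -2.38 (adjusted p = 0.00959 from limma), the microglia and macrophage genes Aif1 and Mpeg1 had -1.06 (adjusted p = 0.0176) and -1.19 (adjusted p = 0.00959), and the collagen gene Col1a1 had 1.86 (adjusted p = 0.0161), each as the log2 injury difference in aged minus that in young mice. The intact means of Cxcl10, 31.5 in aged and 9.67 in young mice, lay under 50, so that its value is no measure of the fold. With signals under 50 set to 50 its call was lost (adjusted p = 0.0618). Col1a1 had an aged intact mean of 22.6, also under 50, against 78.6 in young intact mice. Its value is therefore no measure of the fold either. Whether the calls of Col1a1, Aif1 and Mpeg1 hold under other settings was not examined.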

How the results depend on the processing

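With no filter on low signals, 19 members were called after SCI in aged cord, against 24.1% of all genes called higher and 26.9% lower. In young cord 14 were called, against 23.4% higher and 21.1% lower. Between the ages after SCI 0 were called, against 3.64% of all genes. With the median over the probes of a gene, 10 were called in aged and 7 in young cord. Of 10511 genes, 3396 were then called higher and 3574 lower in aged cord, and 3162 higher and 2958 lower in young cord. With signals under 50 set to 50, the counts were 5 in young cord, 2 between the ages after SCI and 1 for the interaction, where Tnfrsf11a was added because this setting gives its 9 other arrays the value 50. Of 10511 genes, this setting called 3252 higher and 3573 lower in young cord. It called 12.3% between the ages after SCI, and 46 genes positive and 53 negative for the interaction. Between the ages after SCI 0 members were called with the median over the probes of a gene, with only the arrays compared, and by the study's cutoffs on signal and fold. Those cutoffs, applied here as a mean above 50 in either group and a ratio of group means above 2, gave 5 members in aged cord. No share of all genes was taken for them. Over all genes, 5.89% were called between the ages after SCI with that median and 0 with only the arrays compared. Array weights, taken gene by gene, gave 1 for the interaction and 9 in young cord. Of 10511 genes they gave 341 positive and 486 negative for the interaction, and 3848 higher and 4013 lower in young cord. Leaving out 1 array gave 10 to 11 members in aged cord, 8 to 8 in young cord, 0 to 0 between the ages in intact cord, 0 to 2 after SCI and 0 to 1 for the interaction. Of 10511 genes, 3500 to 3795 were then higher and 3947 to 4200 lower in aged cord. In young cord 3235 to 3731 were higher and 3038 to 3918 lower. Between the ages 26 to 131 were higher and 5 to 84 lower in intact cord, and 2.77% to 29.2% were called after SCI. For the interaction 0 to 248 were positive and 5 to 283 negative. With the median over probes, the sign turned for Tnfrsf11a in the interaction (-0.51), Traf6 in young cord (-0.0136) and Nfkbib in aged cord (0.29), and the cause was not tested. With the replicate number as a block, 11 members were called in aged cord, 8 in young cord, 0 in intact cord, 1 between the ages after SCI and 0 for the interaction, as without it, and the same-numbered arrays correlated between -0.11 and 0.67. Of 10511 genes, the block gave 3703 higher and 4179 lower in aged cord, and 3536 higher and 3583 lower in young cord. It gave 50 higher and 21 lower in intact cord, 9.91% between the ages after SCI, and 7 positive and 15 negative for the interaction. Low signal is a limit, since 23 of 34 members fell under the cutoff.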
